A study of Homo sapiens with 6 samples.

Results

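The 48 genes described here are interferon-stimulated, RNA-sensing and interferon-signalling genes, chosen by their symbols from the 63677 identifiers counted in each library. All 48 were matched to an Ensembl identifier, and 37 had enough counts to be tested. They were measured in SW480, an established cell line from a human colorectal adenocarcinoma, by sequencing of polyadenylated RNA. Both groups held cells transduced with a lentiviral vector, selected with puromycin and given 1 µg/mL doxycycline for 72 h to switch on an HA-tagged insert, which was green fluorescent protein (GFP) in the 3 control libraries and POU5F1B, a retrogene copy of the gene for the pluripotency factor OCT4, in the other 3. No untransduced or uninduced cells were among these samples, so vector, selection and doxycycline were shared by both groups, and no library was from cells given interferon. The labels do not say whether the 3 libraries of a group came from separate cultures, so p-values measure the spread between libraries, which may be technical.

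Interferons are secreted proteins that cells make when their sensors detect viral RNA or DNA. Type I interferons bind a receptor made of the chains IFNAR1 and IFNAR2, the kinases JAK1 and TYK2 then phosphorylate STAT proteins, STAT2 among them, which join IRF9 in a complex that binds the interferon-stimulated response element (ISRE) in the promoters of interferon-stimulated genes. Interferon gamma instead acts through IFNGR1 and IFNGR2 and a STAT dimer, which binds the gamma-activated site (GAS). Many of the induced proteins block steps of viral growth, and several are themselves sensors or signalling proteins of the same pathway.

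The promoters of these genes were compared with the letters of both elements, since the elements are what most of the genes are known to share. RefSeq (GRCh38.p14) gave a window of 250 bases before to 50 bases after the start for 38 of the 48 genes. MX2, OAS2, OASL, IFIT2, IFITM2, IRF3, IRF7, DHX58, USP18 and IFNAR2 were without one. The ISRE core GAAANNGAAA, searched on both strands, lay in 22 of these 38 windows (57.9%), against 3.65% of 27305 promoters of the same length. The GAS core TTCNNNGAA, likewise on both strands, lay in 9 of the 38 (23.7%), against 7.88% of all promoters. A match is a description of the letters and not evidence of binding, and the 2 motifs can overlap.

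The stretches around the ISRE matches are shown for MX1, IFIT5, IFIH1, EIF2AK2, ISG15, IFI6, IFITM1 and IFITM3. MX1 and IFIT5 were higher in each POU5F1B library than in the GFP library of the same number. IFIH1 and EIF2AK2 were higher in replicates 1 and 2 only and ISG15 in replicates 1 and 3 only. IFI6, IFITM1 and IFITM3 were higher in replicate 3 only. Capitals mark the match, read 5′ to 3′ on the strand of the gene, and a match on the opposite strand appears as the reverse complement. On GRCh37, found there by exact match, MX1 was shown at chr21:42792476-42792514 (plus strand), IFIT5 at chr10:91174260-91174350 (plus), IFIH1 at chr2:163175186-163175373 (minus) and EIF2AK2 at chr2:37384100-37384149 (minus). ISG15 was shown at chr1:948744-948799 (plus), IFI6 at chr1:27998767-27998879 (minus), IFITM1 at chr11:313980-314063 (plus) and IFITM3 at chr11:320866-320932 (minus).
MX1: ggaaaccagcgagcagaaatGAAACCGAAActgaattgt
IFIT5: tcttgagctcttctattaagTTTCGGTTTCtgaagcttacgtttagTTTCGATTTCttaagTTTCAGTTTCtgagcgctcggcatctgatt
IFIH1: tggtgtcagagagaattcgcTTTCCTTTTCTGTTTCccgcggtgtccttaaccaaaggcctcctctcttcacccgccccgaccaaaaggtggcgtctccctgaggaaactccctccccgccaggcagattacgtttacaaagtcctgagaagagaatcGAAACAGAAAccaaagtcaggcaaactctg
EIF2AK2: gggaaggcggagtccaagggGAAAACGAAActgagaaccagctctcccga
ISG15: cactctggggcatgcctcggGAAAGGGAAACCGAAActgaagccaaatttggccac
IFI6: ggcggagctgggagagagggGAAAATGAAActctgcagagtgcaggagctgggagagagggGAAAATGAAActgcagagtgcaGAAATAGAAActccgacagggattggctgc
IFITM1: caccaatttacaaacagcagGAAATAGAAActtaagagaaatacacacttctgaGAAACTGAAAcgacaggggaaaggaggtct
IFITM3: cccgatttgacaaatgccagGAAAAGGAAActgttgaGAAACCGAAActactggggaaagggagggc

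IFIT5, IFIH1 and IFI6 each held 3 matches. IFITM1, IFITM3 and ISG15 each held 2. Those of ISG15 share letters, as do the first and second of IFIH1. The single match of EIF2AK2 began 6 bases before the start and that of MX1 at base 12 after it. TRIM21 had 2 matches, beginning at bases 18 and 24 after its start. DDX58, IFNGR2, IFNAR1, OAS1, STAT2, MAVS and SAMHD1 had no match to the ISRE core in the window.

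Depth ranged from 10767947 to 12787637 counts per library, and 3 counts corresponded to 0.229 to 0.278 CPM, the counts scaled to a common library size by TMM. POU5F1B itself had 6, 5 and 1 counts in GFP replicates 1, 2 and 3 and 15027, 11393 and 1458 in POU5F1B replicates 1, 2 and 3. Both replicate 3 libraries stood apart. Over all genes the chi-square per degree of freedom was 4.21 between GFP replicates 1 and 2 but 89.5 and 78.7 between these and GFP replicate 3, and it was 5.38 between POU5F1B replicates 1 and 2 but 17.5 and 20.9 against POU5F1B replicate 3. The epithelial markers were present, with a summed level of 6370 to 9580 CPM in GFP and 7910 to 8930 CPM in POU5F1B libraries, but EPCAM was at 86.8, 89.4 and 519 CPM in GFP and 320, 331 and 252 CPM in POU5F1B libraries, and CDX1 and KRT20 were near 0. Results are therefore given for all 6 libraries and for replicates 1 and 2 only.

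Almost no reads were counted for the ligands of the pathway. Of 21 interferon genes, 19 had no count in any library, among them IFNB1, the type I interferon made by many non-immune cells, IFNG and all 13 IFNA genes listed. IFNE had 1 count and IFNL1 5 counts over the 6 libraries. A count of 0 in a library allows a level of up to 0.278 CPM at the lowest depth, for uniquely mapped reads. Reads that fit several places were not counted, and sequence shared among the ligand genes was not measured, so their levels may be understated. Defining markers of plasmacytoid dendritic cells, the immune cells that make most type I interferon (CLEC4C, LILRA4 and IL3RA), had no count. Sequence that IL3RA and the other markers share with other places was not measured either. The 8 leukocyte markers summed to between 1.30 and 4.91 CPM in every library, with CD3D and MS4A1 at 0. The 6 fibroblast markers summed to 27.4 to 171 CPM in GFP and 13.4 to 22.6 CPM in POU5F1B libraries, mostly through COL1A1 (142, 118 and 16.9 against 6.76, 5.56 and 9.49 CPM), with COL3A1 at 0. The part of these genes in the differences described here was not tested.

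Levels of the 48 genes, compared per kilobase of the canonical transcript, covered several orders of magnitude. IFITM3 and IFITM2, small membrane proteins that hinder the fusion of viruses with endosomes, were the highest, at a mean of 316 and 242 CPM per kb over the 6 libraries. IRF3, the transcription factor that is activated by the RNA sensors and needs no induction, followed at 76.0, IFITM1 at 50.8, the receptor chain IFNGR2 at 37.8, BST2, which tethers budding virions, at 30.4, and the ubiquitin-like protein ISG15 at 25.8. SAMHD1, which depletes deoxynucleotides, was at 25.2 and IRF1 at 14.3 CPM per kb. The lowest tested gene was OASL at 0.457 CPM per kb. Of the 36 pairs of neighbours in the order of tested genes, 34 overlapped between libraries. The other 2 were IFITM2 above IRF3 and SAMHD1 above IRF1.

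**Figure D1:**
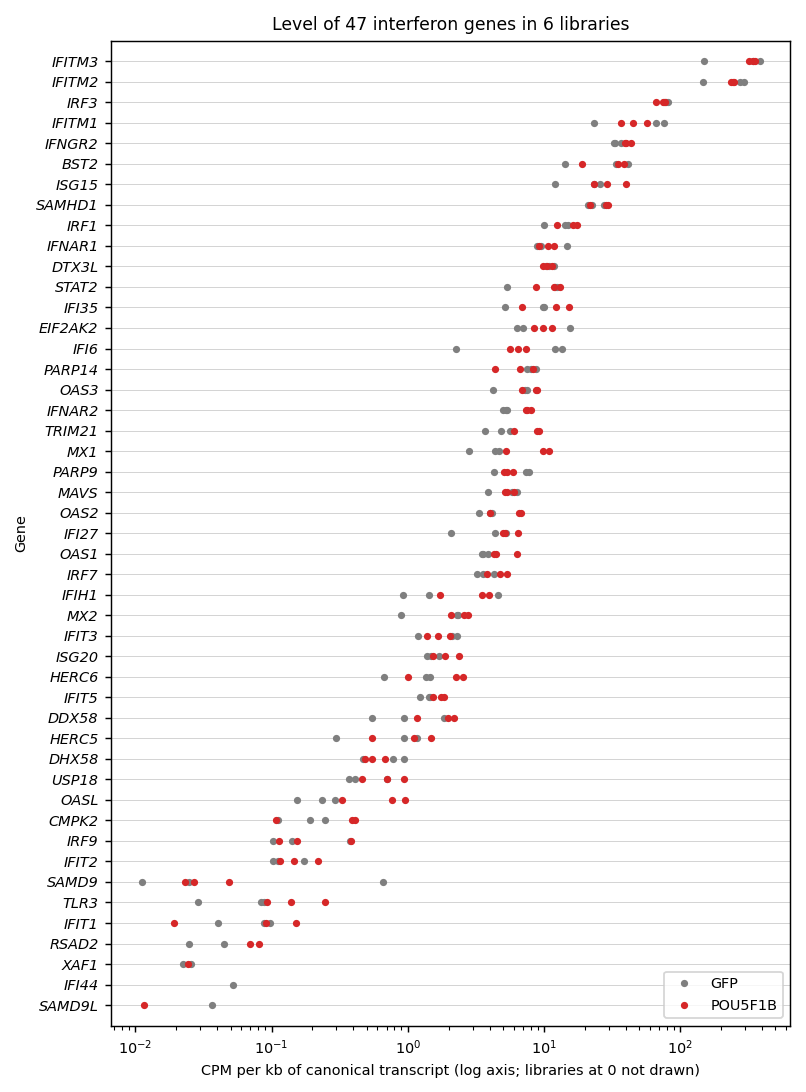
Level of 47 of the 48 genes in each of the 6 libraries, as CPM per kilobase of canonical transcript on a log axis (grey points GFP, red points POU5F1B). IFITM3 and IFITM2 are at the top, the 11 genes below OASL were too low to test (IFI44L, at 0 in every library, is not drawn), and the lowest point of IFITM3, IFITM2, IFITM1, BST2, ISG15, STAT2 and IFI6 is GFP replicate 3.

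In all, 11 genes were too low to be tested, among them genes that are strongly induced in cells given interferon. IFI44L had no count in any library, IFI44 1 count and XAF1 3 counts over the 6 libraries. RSAD2, which makes a chain-terminating nucleotide, had 1, 2 and 0 counts in GFP and 3, 3 and 0 in POU5F1B libraries. Its neighbour CMPK2 had 7, 10 and 4 against 16, 13 and 4. IFIT1 (5, 5 and 2 against 5, 7 and 1 counts) and IFIT2 (7, 5 and 4 against 5, 8 and 6), which bind foreign RNA, were as low in both groups. TLR3, the endosomal sensor of double-stranded RNA, had 6, 7 and 2 counts in GFP and 19, 6 and 10 in POU5F1B libraries.

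SAMD9, a restriction factor of poxviruses, had 2, 1 and 52 counts in GFP and 2, 2 and 4 in POU5F1B libraries, so nearly all of its counts came from GFP replicate 3. Its neighbour SAMD9L, 12 kb away, had 0, 0 and 3 against 0, 0 and 1. IRF9, the DNA-binding partner of STAT2, had 2, 3 and 7 counts against 8, 2 and 3, but 93.1% of its canonical transcript lies under exons of another gene on the same strand, ENSG00000259529, which had 4, 5 and 4 against 10, 2 and 10. Reads that fall in both genes cannot be given to either, so the low count of IRF9 does not measure its level.

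Over the 37 tested genes and all 6 libraries, levels were more often above than below the GFP level in POU5F1B cells, but none passed the threshold of an adjusted p under 0.05 and a fold change above 2, and 0% of the 14286 genes tested did (limma voom; the smallest adjusted p of the 37 was 0.24). edgeR and DESeq2 also called 0 of the 37, with 5 and 6 genes at an unadjusted p under 0.05, all higher in POU5F1B cells, where 5.93% and 6.25% of all genes were higher and 6.11% and 7.32% lower by these tools. DESeq2 put 0.581% of all genes past the threshold with a higher level and 1.04% with a lower one. The voom fit with sample quality weights called 4 of the 37, all higher, against 3.14% of all genes higher and 4.4% lower. The log2 fold change was positive for 28 of 37 genes (75.7%), with a median of 0.32, against 46.9% and a median of -0.02 over all genes tested. Without GFP replicate 3, which was the lowest of the 6 libraries for 24 of the 37, these were 62.2% of the 37 genes and a median of 0.13, against 49% and -0.01 of all genes. At an unadjusted p under 0.05, 4 of the 37 were higher (IFNAR2, MX1, TRIM21 and OASL) and 0 lower, where 6.07% of all genes were higher and 5.82% lower. The groups did not overlap, with POU5F1B higher, for 7 of the 37 (these 4, IFNGR2, OAS1 and IFIT5) and, with POU5F1B lower, for 0, against 10.2% and 9.24% of all genes. OASL and USP18 had passed the filter through their POU5F1B libraries. Without OASL the 4 were 3 and the 7 were 6, and USP18 was in neither count. Both genes are among the 28 with a positive log2 fold change and in the medians, which were not taken without them. Of the 37 genes, 15 were higher in each of the 3 pairs of equal replicate number, against 19% of all genes. OASL and USP18 are among these 15. Lower in each pair were 2 (IRF3 and PARP14), against 17.8% of all genes. The labels do not say that a replicate number marks a shared culture or day.

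**Figure D2:**
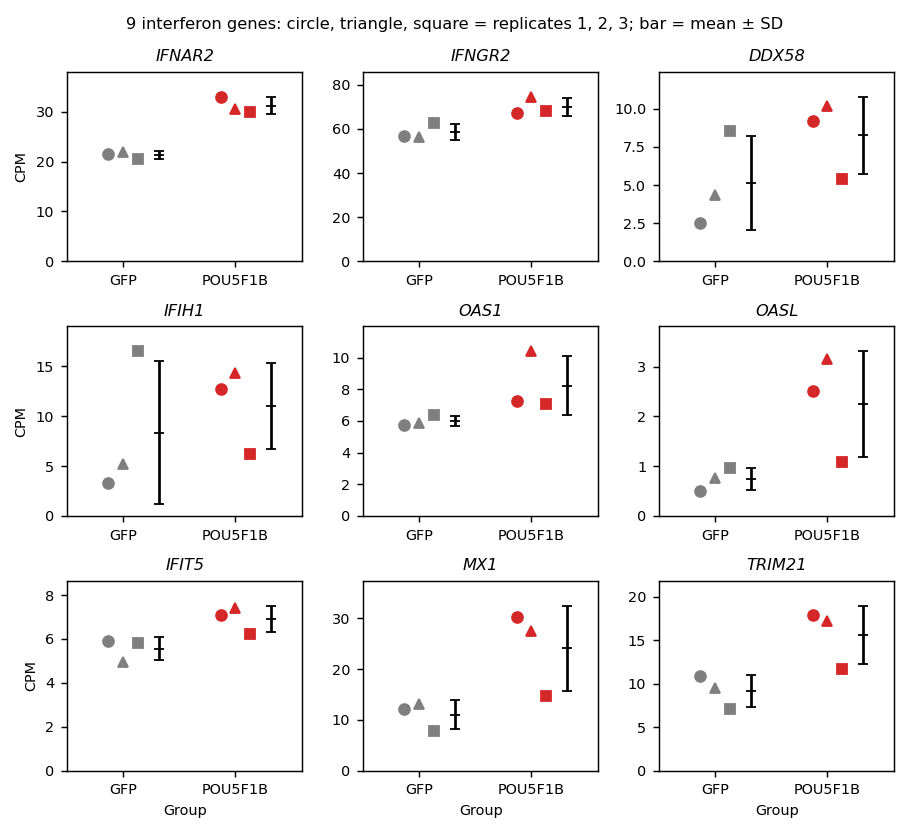
CPM of 9 genes in GFP (grey) and POU5F1B (red) libraries, with replicates 1, 2 and 3 as circle, triangle and square and the mean ± SD (n = 3) as a bar. For 7 genes every red point lies above every grey point, while DDX58 and IFIH1 are high in GFP replicate 3 and low in POU5F1B replicate 3.

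Of the receptor chains, IFNAR2, the ligand-binding chain of the type I receptor, had the smallest p of the 37 genes. It lies on chromosome 21 at 34577587 to 34637980 (GRCh37, plus strand). Its level was 21.5, 21.9 and 20.5 CPM in GFP and 33.0, 30.5 and 30 CPM in POU5F1B replicates 1, 2 and 3, so that every POU5F1B library was above every GFP library. The fold change was 1.46 (95% interval 1.17 to 1.83), or 0.55 ± 0.14 on the log2 scale (SE, adjusted p by voom = 0.24). The log2 differences in pairs 1, 2 and 3 were 0.62, 0.47 and 0.54. Over the same 6 libraries its adjusted p was 0.23 by edgeR, 0.0217 by DESeq2 and 0.00466 by voom with sample quality weights. Its fold change stayed under the limit of 2 in each of these fits. Exons of the read-through gene IFNAR2-IL10RB cover 49.1% of its canonical transcript on the same strand and those of the antisense gene IL10RB-DT 44% on the other, so reads from shared exons may be missing from its count. These 2 genes had at most 2 counts in any library, which does not measure the reads lost.

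IFNGR2, the signalling chain of the interferon gamma receptor (chromosome 21, 34775719 to 34851655, plus strand), was at 57.0, 56.2 and 62.8 CPM in GFP and 67.0, 74.6 and 68 CPM in POU5F1B libraries. The groups did not overlap, but the fold change was small, at 1.19 (0.983 to 1.44; adjusted p by voom = 0.45). TMEM50B, on the other strand, overlaps 11.7% of its transcript. IFNAR1, the other chain of the type I receptor and 43.5 kb from IFNGR2, had a log2 fold change of -0.03 ± 0.22 (SE). Its level was 57.5, 54.6 and 90.0 CPM in GFP and 65.6, 72.2 and 56.1 CPM in POU5F1B libraries, highest in GFP replicate 3. In pairs 1 and 2 IFNAR1 was higher by 0.19 and 0.40 on the log2 scale, near the 0.23 and 0.41 of IFNGR2. Only in pair 3 did it go the other way, at -0.68. IFNGR1, the partner of IFNGR2, was at 25, 27.4 and 29.6 CPM in GFP and 19.4, 24.9 and 22 CPM in POU5F1B libraries. Its groups did not overlap, with POU5F1B lower (log2 fold change -0.31, adjusted p by voom = 0.495).

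Among the transcription factors no gene reached an unadjusted p under 0.05 and none was free of overlap. STAT2, a signal transducer of the type I response, was at 53.7, 54.9 and 23.7 CPM in GFP and 58.0, 52.3 and 38.7 CPM in POU5F1B libraries, the lowest value being GFP replicate 3. IRF1, an activator induced by interferon gamma, was at 51.1, 53.2 and 35.8 against 61.9, 58.0 and 44.7 CPM, higher in each pair by 0.27, 0.13 and 0.32 on the log2 scale (adjusted p by voom = 0.684). IRF7, which amplifies type I interferon production, was at 6.91, 8.23 and 6.18 against 10.3, 7.32 and 9.16 CPM. IRF3 had the smallest fold range of the 4, at 130, 126 and 121 against 125, 106 and 120 CPM, and part of its transcript (14.2%) lies opposite BCL2L12.

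The cytosolic RNA sensors IFIH1 and DDX58 were higher in POU5F1B replicates 1 and 2 than in the GFP libraries of these numbers, and lower in replicate 3. IFIH1, which encodes MDA5, the sensor of long double-stranded RNA (minus strand of chromosome 2, 163123584 to 163175194), had 39, 68 and 190 counts in GFP and 161, 154 and 74 in POU5F1B libraries, which is 3.29, 5.18 and 16.5 against 12.7, 14.3 and 6.16 CPM. Thus all 3 POU5F1B libraries were above GFP replicates 1 and 2, while GFP replicate 3 was the highest of all. The log2 fold change was 0.66 ± 0.61 (SE; adjusted p by voom = 0.697) over 6 libraries and 1.66 (adjusted p = 2.83e-04), a 3.17-fold higher level, over replicates 1 and 2 only. It was 0.18 without GFP replicate 1 and 1.29 without GFP replicate 3.

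DDX58, which encodes RIG-I, the sensor of short RNA with a 5′ triphosphate (chromosome 9, 32455300 to 32526206, minus strand), showed a like pattern, with 2.53, 4.34 and 8.53 CPM in GFP and 9.20, 10.2 and 5.41 CPM in POU5F1B libraries. Its log2 fold change was 0.81 ± 0.47 (SE; adjusted p by voom = 0.534) over 6 libraries and 1.5 (adjusted p = 0.00125) over replicates 1 and 2, and it was 0.40 without GFP replicate 1 and 1.23 without GFP replicate 3. DHX58, the third receptor of this family, which has no signalling domain, differed from both, at 2.02, 2.44 and 1.22 against 1.42, 1.76 and 1.25 CPM. MAVS, the mitochondrial adaptor through which RIG-I and MDA5 signal, was at 74.9, 69.0 and 45.6 against 70.4, 60.4 and 62.7 CPM, with a log2 fold change of 0.06 ± 0.20 (SE).

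Of the 8 effectors tested that act on RNA, 7 had a positive log2 fold change, against 46.9% of all genes. Higher in each pair were 4, against 19% of all genes, and 0 passed the threshold. Both the 7 and the 4 include OASL, which passed the filter through the group where it is high. OASL, a catalytically inactive relative of the 2′-5′ oligoadenylate synthetases (minus strand of chromosome 12, 121455566 to 121477049), had 6, 10 and 11 counts in GFP and 32, 34 and 13 in POU5F1B libraries. All POU5F1B libraries were higher, replicate 3 by only 2 counts over the highest GFP library. The log2 fold change of 1.46 ± 0.52 (SE, adjusted p by voom = 0.353) was the largest of the 37. However, OASL and USP18 were the only tested genes under the filter's limit of 0.825 CPM in some libraries, both in 2 GFP libraries. Both thus passed the filter through their POU5F1B libraries. With replicates 1 and 2 only, the log2 fold change of OASL was 2.08 (adjusted p = 0.00268).

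The synthetases themselves, which make the activator of RNase L, lie side by side on chromosome 12. OAS1 (113343661 to 113371024, plus strand) was at 5.73, 5.87 and 6.35 CPM in GFP and 7.24, 10.4 and 7.08 CPM in POU5F1B libraries, without overlap, and the log2 difference was 0.43 ± 0.23 (SE; adjusted p by voom = 0.512). OAS2, whose gene begins 1.9 kb after OAS3, was at 15.4, 18.7 and 19.4 against 31.4, 30.5 and 18.5 CPM, so that only replicates 1 and 2 were higher (log2 fold change 0.85 in these, adjusted p = 0.00101). OAS3 was at 49.7, 48.3 and 27.8 against 59.1, 57.7 and 45.9 CPM, higher in each pair by 0.25, 0.26 and 0.72.

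EIF2AK2, which encodes the RNA-activated kinase PKR that halts translation, had a pattern like IFIH1 and DDX58. It was at 63.2, 70.5 and 156 CPM in GFP and 98.9, 114 and 84.1 CPM in POU5F1B libraries, with a log2 fold change of 0.65 in replicates 1 and 2 (adjusted p by voom = 5.82e-04) and a pair 3 difference of -0.89. IFIT5 (chromosome 10, 91174325 to 91181362, plus strand) was at 5.90, 4.95 and 5.83 against 7.08, 7.41 and 6.24 CPM, without overlap, at a fold change of 1.24 (0.889 to 1.74; adjusted p by voom = 0.582). IFIT3, in the same cluster, was at 5.48, 5.03 and 2.87 against 4.01, 4.91 and 3.33 CPM. The exonuclease gene ISG20 was at 2.70, 2.36 and 2.18 against 2.44, 2.97 and 3.75 CPM.

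Of the genes for proteins that act on entry, capsids and budding, MX1 was the clearest. MX1 encodes a dynamin-like GTPase that traps viral ribonucleoproteins (chromosome 21, 42791947 to 42841998, plus strand). It had 144, 172 and 90 counts in GFP and 384, 298 and 175 in POU5F1B libraries, or 12.1, 13.1 and 7.83 against 30.2, 27.6 and 14.6 CPM. Every POU5F1B library was above every GFP library, although POU5F1B replicate 3 was only just above GFP replicate 2. The fold change was 2.12 (1.18 to 3.83), or 1.08 ± 0.36 on the log2 scale (SE; adjusted p by voom = 0.333), and in replicates 1 and 2 only it was 1.18 (adjusted p = 1.16e-04). The differences in pairs 1, 2 and 3 were 1.30, 1.07 and 0.88. MX2, its neighbour 10.6 kb away, was at 8, 7.85 and 3.05 against 9.44, 8.90 and 7.08 CPM, higher in each pair but mostly in pair 3 (0.23, 0.18 and 1.17).

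The 3 IFITM genes lie within one cluster on chromosome 11 and shared their highest and lowest library. IFITM1, which acts at the cell surface, was at 50.8, 44.3 and 15.5 CPM in GFP and 24.5, 30.1 and 38.2 CPM in POU5F1B libraries. IFITM2 was at 300, 279 and 149 against 237, 246 and 252 CPM and IFITM3 at 235, 210 and 91.1 against 211, 197 and 217 CPM. All 3 had their highest level in GFP replicate 1 and their lowest in GFP replicate 3, so the groups overlapped. In replicates 1 and 2 only, IFITM1 had a difference of -0.82 on the log2 scale (adjusted p by voom = 8.03e-04) and IFITM2 one of -0.27 (adjusted p = 0.0186), while that of IFITM3 was -0.13 (adjusted p = 0.29).

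These genes share sequence, and reads that fit several places were not counted. Of the 50-base words in the canonical transcripts, 15.8% of IFITM1, 10% of IFITM2 and 20.8% of IFITM3 occur in the canonical transcript of a gene at another place, so their counts are uncertain. BST2 was at 41.5, 33.8 and 14.4 against 34.9, 38.8 and 19.2 CPM, low in both replicate 3 libraries.

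In the group of ubiquitin-like modifiers, ligases and ADP-ribosyltransferases, TRIM21, a cytosolic antibody receptor and ubiquitin ligase (chromosome 11, 4406127 to 4414932, minus strand), was higher in every POU5F1B library. It was at 10.9, 9.45 and 7.14 CPM in GFP and 17.9, 17.2 and 11.7 CPM in POU5F1B libraries. The fold change was 1.69 (1.11 to 2.60), or 0.76 ± 0.26 on the log2 scale (SE; adjusted p by voom = 0.342), with pair differences of 0.71, 0.86 and 0.71. HERC6 was likewise higher in each pair, by 0.71, 0.79 and 0.57, but both replicate 3 libraries were low (5.14, 5.49 and 2.52 against 8.49, 9.64 and 3.83 CPM) and the groups overlapped. HERC5, the main ligase for ISG15 and 14.0 kb from HERC6, was at 3.29, 4.11 and 1.04 against 3.93, 5.19 and 1.91 CPM.

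ISG15 was at 14.9, 16.6 and 7.66 CPM in GFP and 25.8, 14.9 and 18.6 CPM in POU5F1B libraries, a difference of 0.64 ± 0.35 on the log2 scale (SE; adjusted p by voom = 0.516) with an overlap at replicate 2. USP18, which removes ISG15 from proteins and blunts receptor signalling, had 9, 9 and 15 counts against 11, 14 and 21, and 27.0% of its 50-base words occur in genes elsewhere, most of them in USP41. DTX3L and PARP9 encode partners in one complex, and their genes overlap head to head by 240 bases. DTX3L was even across libraries (60.3, 68.4 and 62.5 against 60.6, 65.9 and 56.9 CPM), while PARP9 was at 22.7, 23.8 and 13.2 against 16.4, 18.2 and 15.5 CPM with a log2 difference of -0.45 in replicates 1 and 2 only (adjusted p by voom = 0.0354). PARP14 was at 58.4, 68 and 62.4 against 51.8, 64.4 and 33.9 CPM, lower in each pair.

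Among the other genes, IFI6, a small membrane protein of mitochondria and endoplasmic reticulum, had the largest SD of log2 CPM among GFP libraries of the 37 genes (1.39), with 117, 144 and 21 counts against 76, 57 and 55. It was thus lower in POU5F1B replicates 1 and 2 than in the GFP libraries of the same number (log2 fold change -0.89, adjusted p by voom = 0.00652) and higher in replicate 3. Exons of LINC02574 cover 26.6% of the canonical transcript of IFI6 on the same strand, so reads from there may be missing from its count. LINC02574 had no count in any library, which does not measure the reads lost. IFI27 was at 3.12, 3.81 and 1.48 against 3.70, 3.61 and 4.66 CPM and IFI35 at 11.9, 11.7 and 6.18 against 18.1, 14.5 and 8.24 CPM. SAMHD1 was at 129, 105 and 98.2 against 133, 137 and 102 CPM, with a log2 fold change of 0.15 ± 0.17 (SE).

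**Figure D3:**
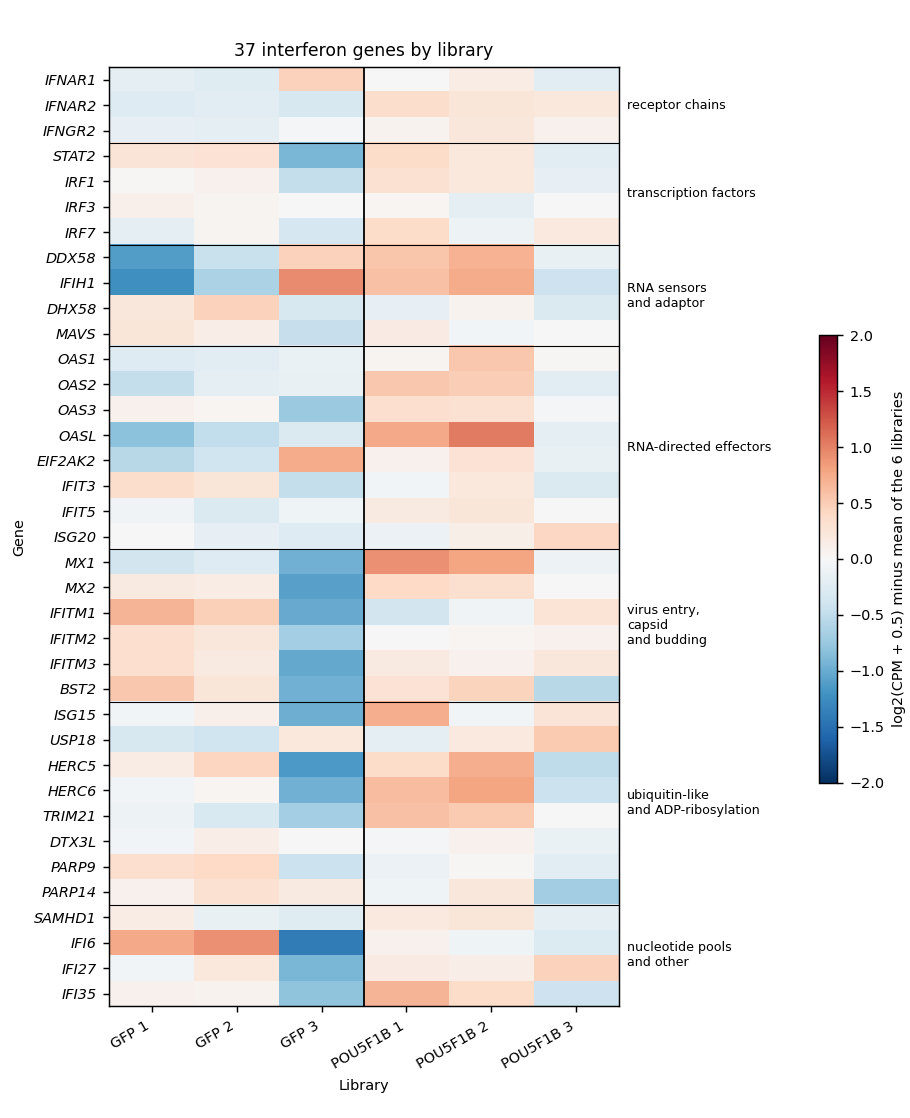
The 37 tested genes (rows, grouped by role) in the 6 libraries (columns), as log2(CPM + 0.5) minus the mean of the gene over the 6 libraries (red above, blue below, scale from -2 to 2). GFP replicate 3 is blue for most genes, with its strongest red for IFIH1, DDX58, EIF2AK2 and IFNAR1.

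GFP replicate 3 was most often the lowest library. It had the lowest level of the 6 libraries for 24 of the 37 genes, against 4165 of all 14286 genes tested, and the highest for 3 (IFIH1, EIF2AK2 and IFNAR1), against 4949 of all genes. The median difference of GFP replicate 3 from the mean of GFP replicates 1 and 2 was -0.54 on the log2 scale for the 37 genes and 0.04 for all genes. It was largest for IFI6 (-2.41), HERC5 (-1.67) and IFITM1 (-1.60). IFIH1 (1.96), DDX58 (1.32) and EIF2AK2 (1.22) stood at the other end. POU5F1B replicate 3, which had the least POU5F1B of the 3 POU5F1B libraries, differed from POU5F1B replicates 1 and 2 by a median of -0.30 for the 37 genes and 0.01 for all genes, with OASL (-1.26), HERC6 (-1.20), HERC5 (-1.17) and IFIH1 (-1.10) the lowest. In bulk RNA, a lower level in each cell and fewer cells with the transcript cannot be told apart.

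**Figure D4:**
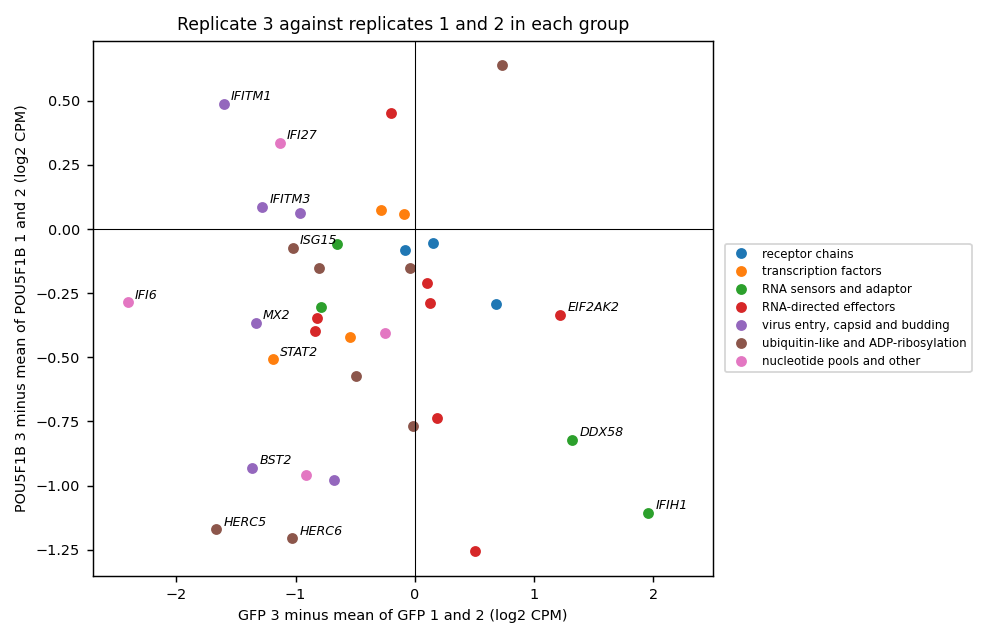
Each point is 1 of the 37 tested genes, coloured by role, with the log2 CPM of GFP replicate 3 minus the mean of GFP replicates 1 and 2 on the horizontal axis and the same for the POU5F1B libraries on the vertical axis. Most genes lie left of 0, IFI6 farthest at -2.41, and IFIH1, DDX58 and EIF2AK2 lie to the right.

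With replicates 1 and 2 only, 4 of the 37 genes passed the threshold with a higher level (MX1, OASL, DDX58 and IFIH1) and 0 with a lower one, against 3.21% and 5.15% of all genes (limma voom). Without OASL, which passed the filter through the group where it is high, they were 3. At an adjusted p under 0.05 alone, 10 were higher, which adds EIF2AK2, OAS2, TRIM21, IFNAR2, HERC6 and IFNGR2, and 4 lower (IFITM1, IFITM2, IFI6 and PARP9), against 14.1% and 15.5% of all genes. The median log2 fold change was 0.20, with 25 of 37 genes positive, against -0.01 over all genes, with 7068 of 14286 positive. OASL and USP18 are among these 25 and in this median. Without GFP replicate 3, 11 of the 37 did not overlap with POU5F1B higher and 7 with POU5F1B lower, where 24.9% and 23.9% of all genes did. In replicates 1 and 2 only, these counts were 19 and 7, against 33.8% and 32.5%. Both were counted after the data were seen.

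**Figure D5:**
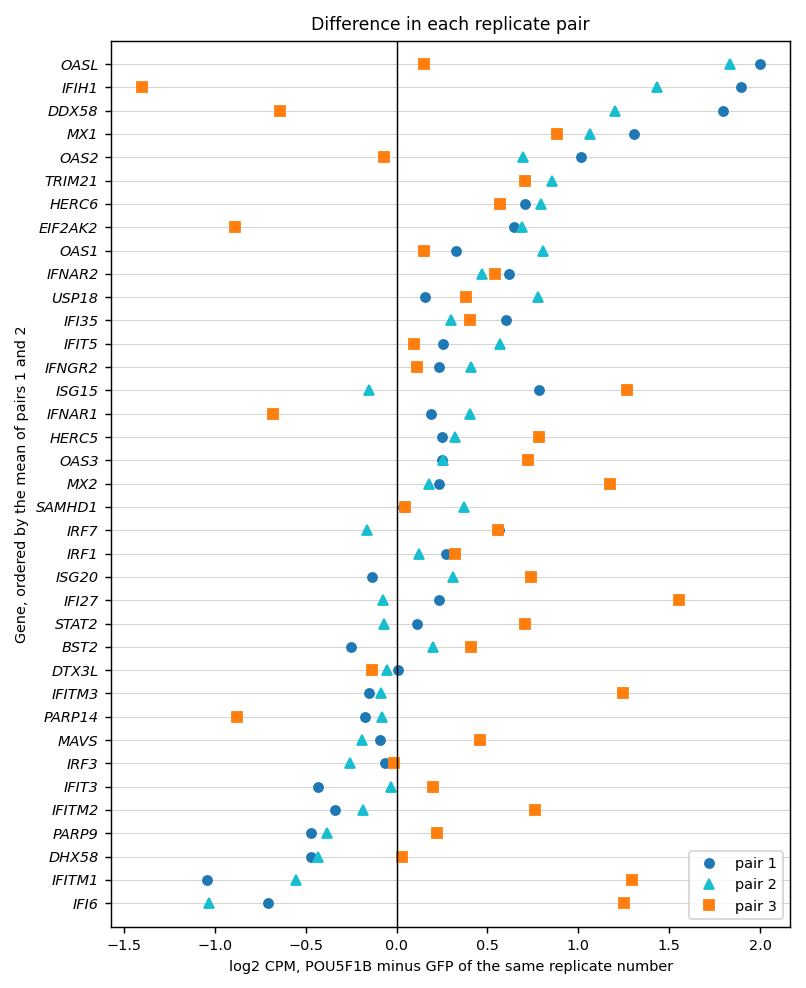
Difference in log2 CPM between POU5F1B and GFP libraries of the same replicate number for the 37 tested genes, ordered by the mean of pairs 1 and 2 (circles and triangles, with pair 3 as squares). OASL is at the top and IFI6 at the bottom, and pairs 1 and 2 lie on opposite sides of 0 for ISG15 and IRF7 among others. Pair 3 lies farthest left for IFIH1, EIF2AK2, PARP14, IFNAR1 and DDX58. It lies far right for IFI27, IFITM1, ISG15, IFI6 and IFITM3.

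The difference in pair 3 was tested against that in pairs 1 and 2 by an interaction term, with the single library of each group in replicate 3 assumed to vary like replicates 1 and 2. That spread could not be measured, and the chi-squares above are larger against both replicate 3 libraries, so the calls compare these libraries and are no test of a condition. At an adjusted p under 0.05 (limma voom), 13 of the 37 genes were called, against 33.3% of all genes, so the share was close to that of genes in general. The difference was more positive in pair 3 for 7 of them (IFI6, IFITM1, IFI27, IFITM3, IFITM2, STAT2 and MAVS) and more negative for 6 (IFIH1, DDX58, EIF2AK2, IFNAR1, OAS2 and PARP14). MX1, TRIM21 and IFNAR2 were not among them, at -0.30, -0.08 and -0.01 on the log2 scale.

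Medians by role differed between the pairs. For the 6 genes acting on entry, capsids and budding they were -0.20, 0.05 and 1.03 on the log2 scale in pairs 1, 2 and 3. In pair 3, 6 of 6 were higher, against 7218 of 14286 genes tested. GFP replicate 3 was the lowest library for each of these 6 genes. For the 4 RNA sensors and adaptor tested they were 0.85, 0.50 and -0.30. The 8 RNA-directed effectors had 0.29, 0.63 and 0.15, and the 8 ubiquitin-like and ADP-ribosylation genes 0.20, 0.14 and 0.48. OASL is among the effectors and USP18 among the ubiquitin-like genes, and these medians were not taken without them.

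The genes were also grouped by the ISRE letters, as a description. Over the 6 libraries the median log2 fold change was 0.32 for the 17 tested genes with the ISRE core in the window. It was 0.24 for 11 without the core and 0.50 for 9 without a window. Free of overlap, with POU5F1B higher, were 3, 2 and 2 of them, against 10.2% of all genes. In replicates 1 and 2 only, the medians were 0.08, 0.28 and 0.20. OASL and USP18, which passed the filter through their POU5F1B libraries, are among the 9, and OASL is among their 2 free of overlap. The medians were not taken without these genes. GFP replicate 3 was below the mean of GFP replicates 1 and 2 for 14 of the 17, 7 of the 11 and 6 of the 9 genes. MX1 and TRIM21, with the core, and IFNGR2, without it, were all higher in every POU5F1B library, and of IFIH1 and DDX58, which were alike in their pair differences, only IFIH1 had the core.

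Other genes of the pathway were also counted. Of 109 listed, 63 were tested, 0 passed the threshold over 6 libraries, and at an unadjusted p under 0.05 (limma voom) 4 were higher (SP110, IRF5, NMI and PLSCR1) and 2 lower, SLFN5 among them, where 6.07% and 5.82% of all genes were. SP110, a nuclear body protein, was at 1.35, 0.914 and 1.13 CPM in GFP and 2.36, 2.13 and 2.66 CPM in POU5F1B libraries (log2 fold change 1.07, adjusted p by voom = 0.273). NMI, a partner of STAT proteins, was at 9.94, 11.1 and 12 against 20.3, 22.9 and 13.3 CPM. The groups did not overlap for either gene.

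By list, 0 of 8 other receptors, kinases and STATs, 0 of 5 feedback genes, 1 of 8 sensing genes and 5 of 42 other induced genes had an unadjusted p under 0.05. SOCS3, a feedback inhibitor of the receptors, was at 11, 10.5 and 5.13 against 17.5, 14.9 and 9.57 CPM (log2 fold change 0.68, adjusted p by voom = 0.516). IRF5, a transcription factor downstream of sensors, was at 17.9, 23.5 and 17.4 against 35.0, 28.0 and 26.5 CPM (adjusted p = 0.323). With replicates 1 and 2 only, 2 of the 63 passed the threshold, NMI and IRF8, both higher, where 3.21% of all genes were higher and 5.15% lower. IRF8 had 8, 7 and 11 counts in GFP and 17, 23 and 12 in POU5F1B libraries. It was under the filter's limit of 0.825 CPM in GFP replicates 1 and 2. Like OASL, it thus passed the filter through the group where it is high, which leaves NMI. The chemokine genes CXCL9 and CXCL10, induced by interferon gamma, had no count in any library.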

How the data were processed

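RNA of 3 GFP and 3 POU5F1B libraries was prepared by the authors with a stranded poly(A) kit, mapped with HISAT2 to hg19 (GRCh37) and counted with featureCounts on an annotation of genes and transposable elements, uniquely mapped reads only. The deposited values are raw counts per Ensembl gene, 1 table per library, with 63677 identifiers. Neither a strand setting for featureCounts nor an annotation release is given in the sources used here, so antisense and overlapping genes are uncertain.

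Genes were filtered with filterByExpr (14286 kept), scaled by TMM (edgeR 4.0.16) and tested with limma 3.58.1 voom in R 4.3.3 without a block, as in the study's methods, with Benjamini-Hochberg adjustment over all genes tested. The threshold was an adjusted p under 0.05 and a fold change above 2. Log2 CPM used a prior count of 2. Alternatives were edgeR's quasi-likelihood test, DESeq2 1.42.0 and its size factors, sample quality weights, no filter, a replicate block, replicates 1 and 2 only, and leaving out each library. Samples were grouped by their titles. Tests were checked on simulated counts. Floors of 3 counts cover counting error only. Members and lists were chosen with earlier results of these data known. Values per library and full statistics are given for genes at an unadjusted p under 0.05, without overlap of the groups, or past the threshold with replicates 1 and 2 only. For other pathway genes, the smallest p-values of each list were named. NMI, PLSCR1, IRF8, CXCL9 and CXCL10 were added after their values were seen. Coordinates are GRCh37 (GENCODE).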

Additional observations from a re-analysis of the deposited data

Results flagged for a closer look

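For 13 of the 37 tested genes the difference between POU5F1B and GFP libraries in pair 3 was called apart from that in pairs 1 and 2 by the interaction term (limma voom, adjusted p under 0.05), as it was for 33.3% of all genes. The change from pairs 1 and 2 to pair 3, on the log2 scale, was 2.18 for IFI6, 2.11 for IFITM1, 1.55 for IFI27, 1.37 for IFITM3, 1.02 for IFITM2, 0.68 for STAT2 and 0.59 for MAVS. In the other direction it was -3.10 for IFIH1, -2.17 for DDX58, -1.55 for EIF2AK2, -0.98 for IFNAR1, -0.93 for OAS2 and -0.74 for PARP14. Each group had 1 library in pair 3, assumed to vary like replicates 1 and 2, which could not be measured, so the calls compare these libraries and are no test of a condition.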

How the results depend on the processing

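For 7 of the 9 genes with full statistics the groups do not overlap, which fixes their direction when a library is left out. Leaving out 1 library moved IFIH1 from 0.66 to between 0.18 and 1.29, DDX58 from 0.81 to between 0.40 and 1.23 and, without POU5F1B replicate 2, OAS1 from 0.43 to 0.26. Over the 13 alternatives, 8 values passed the threshold, those of MX1, OASL, DDX58 and IFIH1 with sample quality weights or with replicates 1 and 2 only. The number of interferon genes past the threshold went from 0 to 4 with sample quality weights (0.111 for GFP replicate 3), and to 4 with replicates 1 and 2 only. At an unadjusted p under 0.05 it was 4 (0 of them lower), and 16 with weights (11 higher and 5 lower, against 19.9% and 20.2% of all genes), 18 with replicates 1 and 2 only (14 and 4, against 19.5% and 20.7%) and 1 to 12 with a library left out, the 12 being without GFP replicate 3 (8 and 4, against 13.8% and 15.5%). The median log2 fold change was 0.32, and 0.21 with weights, 0.20 with replicates 1 and 2 only and 0.13 to 0.40 with a library left out, 0.13 being without GFP replicate 3. The number of genes without overlap was 7, and 18 without GFP replicate 3 and 26 with replicates 1 and 2 only, 2 settings chosen after the data were seen. Over all genes, 0 passed the threshold, and 232 with DESeq2, 1077 with weights, 4 without the filter, 1 with the replicate block, 1194 with replicates 1 and 2 only and 0 to 595 with a library left out, the 595 being without GFP replicate 3. Of the other pathway genes 2 passed with weights, 2 with replicates 1 and 2 only and 0 to 1 with a library left out. IRF8, which passed the filter through its POU5F1B libraries, is among the 2 with replicates 1 and 2 only. With the replicate block, 0 interferon genes passed, 5 had an unadjusted p under 0.05 and the median was 0.31. Libraries of equal number deviated together with correlations of 0.242, 0.0883 and 0.165, so the numbers were not taken as pairs. The cause of these differences was not tested. Depth limits the 11 genes that were too low to test, and OASL, USP18 and DHX58 rest on few counts.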

Other observations

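Genes outside the 48 also had a level of their own in GFP replicate 3. TBK1, the kinase that activates IRF3, was at 13.2, 15.9 and 50.6 CPM in GFP and 15.5, 19.3 and 11.5 CPM in POU5F1B libraries. PNPT1, a mitochondrial exoribonuclease, was at 54.2, 60.2 and 198 against 93.6, 106 and 99.7 CPM, and JAK2 at 2.19, 1.90 and 7.66 against 2.20, 4.26 and 2.33 CPM. DDX60L had 3.65 CPM in GFP replicate 3 and at most 0.916 CPM in any other library. TMEM173, which encodes STING, ran the other way, at 39.8, 36.0 and 12.3 against 19, 19.7 and 25.4 CPM. These genes were chosen after their values were seen. Within groups, the SD of log2 CPM was larger in GFP than in POU5F1B libraries for 22 of the 37 interferon genes (59.5%) and for 70.5% of all genes tested.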
